A study of Mus musculus with 4 samples.

Results

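Furin is a proprotein convertase of the secretory pathway, a protease that cuts precursor proteins after short basic stretches and so releases their mature forms. The 10 genes described here encode such precursors, namely the membrane proteases Adam10, Adam17, Adam15 and Adam19, the receptors Notch1 and Notch2, the sorting receptor Sort1, the growth factor receptors Igf1r and Insr, and the integrin chain Itgav. The ADAM proteases carry a prodomain that keeps them inactive until it is cut off, Notch receptors are cut in the Golgi before they reach the surface, and the receptors for insulin and insulin-like growth factor 1 and the alpha v integrin are cut into pairs of chains that stay linked. Because furin acts on the protein, a transcript level says how much precursor message was present and nothing about its cutting.

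The members were all probe sets of the Affymetrix mouse array whose annotation names 1 of these 10 symbols alone. These 10 genes, of 10211 with a tested probe set, had 33 probe sets of the 45037 that are not controls, between 2 and 5 each. The RNA came from freshly sorted CD4+ CD62L+ CD44- cells, the naive helper T cells, of mice aged 10 to 11 weeks. The knockout group carried CD4-cre and both floxed alleles of the furin gene (fur flox/flox), so that deletion is driven by the CD4 promoter and reaches T cells. The wild-type group was made of littermates with the same floxed alleles and no Cre, so its furin gene was floxed but intact. Each group had 2 arrays, numbered 1 and 2 in the labels, which limits the precision of all that follows. Separate animals are not stated for the arrays of a group, so p-values measure the spread between samples that may be technical.

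Signals are linear MAS5 values. Differences are knockout minus wild type of log2(signal + 15.3), a scale that compresses differences of dim probe sets. A probe set was tested when its mean log2 value over the 4 arrays lay above the median of all probe sets, 6.24, and 18 of the 33 members were. All 10 genes had at least 1 such probe set, and the brightest of each gene stands for it below.

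The 4 arrays paired by number more than by genotype. Signals of bacterial and phage control RNA, which does not come from the cells, were 5.87 times as high on array 2 as on array 1 in the knockout and 6.04 times in the wild type. For Gapdh controls the 3' to 5' ratio was 0.934 (knockout) and 0.905 (wild type) in arrays numbered 2, against 3.35 (knockout) and 4.09 (wild type) in arrays numbered 1. The Actin controls differed the other way, with ratios of 1.77 (knockout) and 1.72 (wild type) in arrays numbered 2, against 1.2 (knockout) and 1.23 (wild type) in arrays numbered 1. The difference within arrays numbered 1 and within arrays numbered 2 is therefore given for each gene. The limma values below leave the array number out unless a block is named, so the spread between numbers stays in their SE. Over all tested probe sets the median SE was 0.41 in that fit and 0.20 with the array number as a block. The blocked fit leaves 1 residual degree of freedom, so its SE rests largely on variance pooled over probe sets. The single Furin probe set did not separate the groups, with signals of 391.4 and 446.9 on the knockout arrays 1 and 2 and 435.1 and 343.9 on the wild-type arrays 1 and 2. Where it lies relative to the deleted part of the gene is not given in the sources used here, so it checks neither the deletion nor the labels.

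The sorted cells carried T cell markers, with summed signals of 55646.9 and 116314 over 7 measured naive T cell genes on the knockout arrays 1 and 2 and 60122.9 and 121438 on the wild-type arrays 1 and 2. The 8 measured B cell markers summed to 1394.0 and 13807.2 on the knockout arrays and to 916.0 and 3815.7 on the wild-type arrays. The 10 measured myeloid markers summed to 2074.7 and 13773.7 on the knockout arrays and to 1340.8 and 3980.5 on the wild-type arrays. All 9 myeloid genes and 6 of 7 B cell genes above the filter level were higher in the knockout array within both numbers. Of 4 CD8 T cell and NK cell genes above it, 2 were higher within both numbers and 0 lower. The 1 erythroid or platelet gene above it had opposite signs, and no marker was listed at 0. The part of such cells in the results below was not tested, and in bulk RNA fewer cells of a type and less RNA per cell cannot be told apart.

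None of the 18 tested probe sets passed limma with Benjamini-Hochberg adjustment over 22518 probe sets, and the share of all probe sets called was 0%. All 18 adjusted p-values were 0.99999. No member had an unadjusted p under 0.05 in that limma fit, where 145 probe sets of the array did, or 0.644%. With the array number as a block the fit called 6 probe sets, or 0.0266%, and with a trended prior as well 260, or 1.15%, and no member was among either. In the blocked limma fit 2 members, of Sort1 and Adam19, had an unadjusted p under 0.05, as 8.42% of all probe sets did. The brightest probe sets of 3 genes, Sort1, Notch1 and Itgav, were higher in the knockout within both numbers, those of 2, Adam19 and Adam15, were lower, and the other 5 had opposite signs. With quantile normalization 4 genes were higher and 2 lower within both numbers, and with median centring 2 and 2. Across the 10211 genes tested, 27.6% were higher within both numbers and 27.2% lower. The median difference of the 10 genes was 0.03, against -0.002 for all genes. These shares are close to those of the whole array, and the 2 largest differences, Sort1 upward and Adam19 downward, went opposite ways.

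**Figure D1:**
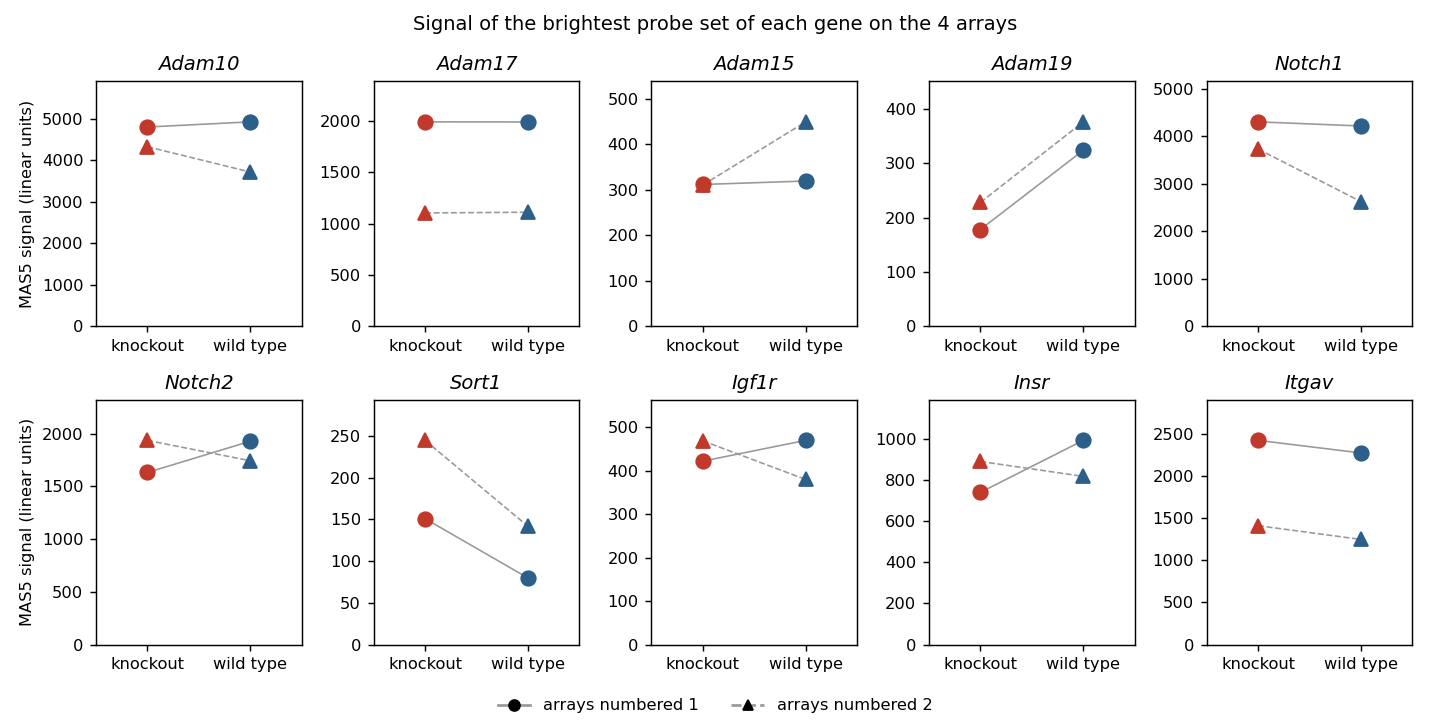
MAS5 signal (linear axis from 0) of the brightest probe set of each of the 10 genes, with the 2 knockout arrays left of the 2 wild-type arrays; circles and solid lines join arrays numbered 1, triangles and dashed lines those numbered 2. Both lines slope clearly the same way for Adam19 (up toward wild type) and Sort1 (down toward wild type), while those of Notch2, Igf1r and Insr cross. The lines of Adam15 also cross, near the knockout side, where its signals are almost equal.

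Adam10 and Adam17 are the principal sheddases of T cells, proteases that cut the outer part off membrane proteins. Adam10 also makes the ligand-induced cut in Notch receptors. The brightest Adam10 probe set (1428103_at) had signals of 4798.0 and 4322.5 on the knockout arrays 1 and 2 and 4922.6 and 3713.5 on the wild-type arrays 1 and 2. Both knockout values lay between the wild-type ones. The difference was 0.09 (SE 0.35, 95% interval -0.81 to 0.99, limma), with -0.04 within arrays numbered 1 and 0.22 within those numbered 2. The next brightest Adam10 probe set gave -0.76 and 0.26 within the numbers, and the one after it -0.86 and 0.64. All 4 Adam10 probe sets were thus lower in the knockout within arrays numbered 1 and higher within arrays numbered 2. The spread between these differences was widest for the dimmest, which was not tested, at -1.13 and 1.70.

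Adam17, the protease that releases TNF and L-selectin, had almost equal signals in the groups when arrays of 1 number are set side by side. Its brightest probe set (1421858_at) read 1992.1 and 1103.3 on the knockout arrays 1 and 2 and 1991.1 and 1110.3 on the wild-type arrays 1 and 2. The difference was -0.004 (SE 0.50, 95% interval -1.30 to 1.29), and with the array number as a block the interval narrowed to between -0.47 and 0.46. On the same probe set the arrays numbered 2 lay 0.84 below those numbered 1, so the number separated the values and the genotype did not. The other Adam17 probe sets were at -0.12 (-0.10 and -0.14 within the numbers) and -0.41 (-0.67 and -0.14). The last of these had 139.3 and 139.0 on the knockout arrays against 231.4 and 154.4 on the wild-type arrays, without overlap.

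Adam15 and Adam19 are further membrane-bound proteases of the same family, each with a disintegrin domain that can bind integrins. The brightest Adam19 probe set (1418402_at) had signals of 178.0 and 227.9 on the knockout arrays 1 and 2 and 324.2 and 376.6 on the wild-type arrays 1 and 2. Both knockout arrays lay below both wild-type arrays. Its mean signal was 203.0 ± 35.3 in the knockout and 350.4 ± 37.1 in the wild type (SD, n = 2 each). The difference was -0.75 (SE 0.34, 95% interval -1.64 to 0.13), a ratio of 0.594 on this scale, with -0.81 and -0.69 within the numbers. The block narrowed its interval to between -1.22 and -0.28. The adjusted p (limma) was then 0.521, or 0.186 with a trended prior, so no fit called it. The SE was 0.19 with the block and 0.25 with the block and that prior. The dimmer Adam19 probe set, below the filter level, had 22.4 and 53.0 on the knockout arrays against 34.6 and 106.5 on the wild-type arrays, and it too was lower within both numbers, at -0.40 and -0.83.

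The Adam15 probe set above the filter level (1438760_x_at) had 311.3 and 310.0 on the knockout arrays 1 and 2 and 318.9 and 449.0 on the wild-type arrays 1 and 2. The knockout arrays lay below, by 0.03 within arrays numbered 1 and 0.51 within those numbered 2. The difference was -0.27 (SE 0.35), and the name of this probe set marks it as one that may share probes with other transcripts. Of the other 3 Adam15 probe sets, all too dim to test, 2 were lower in the knockout within both numbers and 1 was higher. The one with the most negative difference, -1.45, had 26.9 and 11.6 on the knockout arrays against 43.4 and 129.0 on the wild-type arrays. With the mean of all 4 probe sets Adam15 was at -0.61.

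The promoters of the members were searched for the motif of AP-1, TGANTCA, a search that was not planned beforehand. The motif is its own reverse complement and so was read on both strands at once. AP-1 is a factor made of Jun and Fos proteins that responds to T cell receptor signals. RefSeq promoters of assembly GRCm38.p6, from 250 bases before to 50 after each start, were at hand for 8 of the 10 genes. Of their 10 promoters 1 held the motif, at 1 of the 3 Adam19 starts, and 7.81% of all 32851 promoters did. The bases before that start, on the plus strand at chr11:46055734-46055983, are shown with the motif in capitals, 131 bases before the start.
Adam19: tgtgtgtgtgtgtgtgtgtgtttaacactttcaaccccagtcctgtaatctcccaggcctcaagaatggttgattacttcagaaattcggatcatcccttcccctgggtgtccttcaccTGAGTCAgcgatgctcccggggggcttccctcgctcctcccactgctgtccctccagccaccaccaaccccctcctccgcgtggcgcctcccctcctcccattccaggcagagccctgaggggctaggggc
The core motif of RBPJ, the DNA-binding partner of Notch, TGGGAA on either strand, was found in 1 of the 10 promoters, that of Igf1r, against 25.6% of all promoters. A match is a run of letters and not a bound site, and a link between a match and the differences in signal was not tested.

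Notch1 and Notch2 are receptors whose inner part moves to the nucleus after ligand binding, and Notch1 directs the choice of the T cell fate in the thymus. The brightest Notch1 probe set (1418634_at) had signals of 4304.9 and 3731.3 on the knockout arrays 1 and 2 and 4218.1 and 2622.7 on the wild-type arrays 1 and 2. The groups overlapped, since knockout array 2 lay below wild-type array 1. The difference was 0.27 (SE 0.39, 95% interval -0.75 to 1.28), and nearly all of it lay within arrays numbered 2, at 0.51, with 0.03 within arrays numbered 1. The dimmer Notch1 probe set, with 535.1 and 396.1 on the knockout arrays against 569.5 and 277.4 on the wild-type arrays, showed the same split, at -0.09 and 0.49.

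Notch2, better known for its role in marginal zone B cells, had 1632.4 and 1937.2 on the knockout arrays 1 and 2 and 1928.9 and 1743.3 on the wild-type arrays 1 and 2 for its brightest probe set (1455556_at). These values interleaved. The difference was -0.04 (SE 0.33, 95% interval -0.90 to 0.81), with -0.24 and 0.15 within the numbers. Its other probe set was below the filter level on the mean of the arrays, with 54.5 and 8.3 on the knockout arrays against 35.8 and 4.4 on the wild-type arrays.

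Sort1 encodes sortilin, a receptor of the Vps10 family that carries proteins from the Golgi to endosomes and lysosomes and whose propeptide is removed by furin. Its brightest probe set (1423362_at) had signals of 150.8 and 244.6 on the knockout arrays 1 and 2 and 79.7 and 141.6 on the wild-type arrays 1 and 2. Both knockout arrays lay above both wild-type arrays, though knockout array 1 and wild-type array 2 were close. The mean was 197.7 ± 66.3 in the knockout and 110.7 ± 43.8 in the wild type (SD, n = 2 each). The difference was 0.77 (SE 0.44, 95% interval -0.39 to 1.92), a ratio of 1.70, with 0.81 and 0.73 within the numbers. With the block the interval ran from 0.30 to 1.24 and the adjusted p (limma) was 0.506, or 0.314 with a trended prior. The SE was 0.19 with the block and 0.31 with the block and that prior, so the narrower interval depends on the prior used.

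The probe sets of Sort1 disagreed. A second, below the filter level, had 27.8 and 6.7 on the knockout arrays against 37.0 and 76.3 on the wild-type arrays, a difference of -1.17. The last, also below it, had 29.5 and 20.8 on the knockout arrays against 20.3 and 3.4 on the wild-type arrays, a difference of 0.64. Their mean with the brightest left Sort1 at 0.08.

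**Figure D2:**
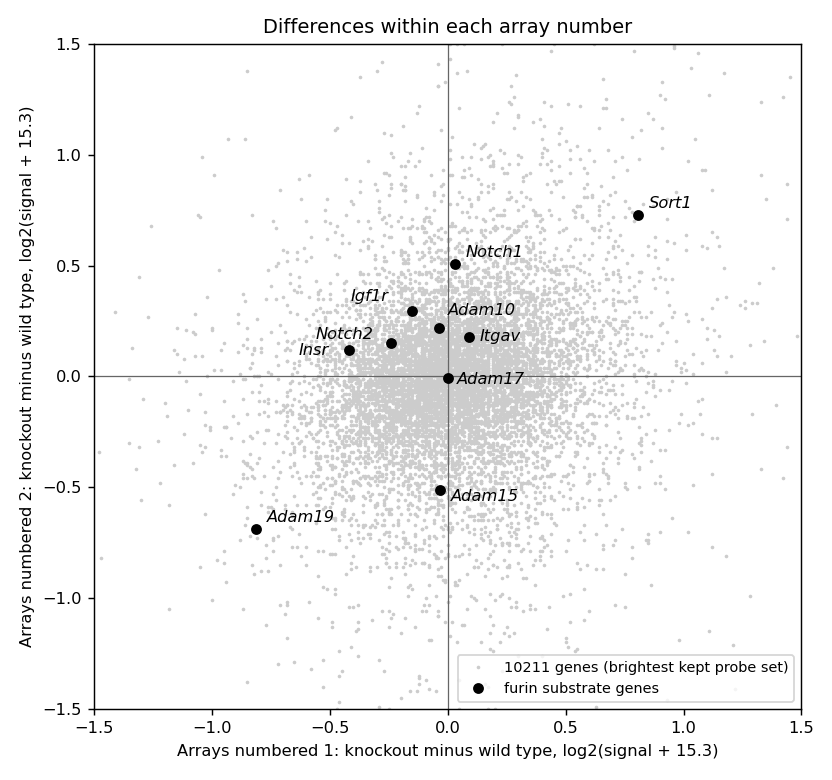
Difference of knockout minus wild type, log2(signal + 15.3), within arrays numbered 1 (horizontal) and within arrays numbered 2 (vertical); black points are the 10 furin substrate genes and grey points the 10211 genes with a tested probe set, of which 168 lie beyond the axes at 1.5. Sort1 at 0.81 and 0.73 and Adam19 at -0.81 and -0.69 lie farthest from the centre among the 10, and the other 8 lie where the grey points are densest or near it.

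Igf1r and Insr are related tyrosine kinases that bind insulin-like growth factor 1 and insulin, and feed the PI3 kinase pathway. The brightest Igf1r probe set (1452982_at) had 422.0 and 468.9 on the knockout arrays 1 and 2 and 469.9 and 379.9 on the wild-type arrays 1 and 2. The groups overlapped, with a difference of 0.07 (SE 0.33, 95% interval -0.80 to 0.94) and values of -0.15 and 0.29 within the numbers. The other 3 tested Igf1r probe sets were at -0.08, -0.20 and 0.22. They differed far more by array number: the arrays numbered 2 lay 0.60 and 1.32 above those numbered 1 on the first and second of these probe sets and 0.50 below them on the third.

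Insr had 739.8 and 890.0 on the knockout arrays 1 and 2 and 992.6 and 817.6 on the wild-type arrays 1 and 2 for its tested probe set (1434446_at). Knockout array 1 was the lowest and wild-type array 1 the highest of the 4. The difference was -0.15 (SE 0.34, 95% interval -1.03 to 0.73), with -0.42 and 0.12 within the numbers. Its 2 dimmer probe sets were at -0.14 and -0.66 and were not tested.

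Itgav encodes the alpha v chain of integrins that bind vitronectin and, with certain beta chains, release active TGF-beta. Its brightest probe set (1452784_at) had 2423.7 and 1410.8 on the knockout arrays 1 and 2 and 2274.2 and 1247.4 on the wild-type arrays 1 and 2. The knockout array was the higher within each number, by 0.09 and 0.18, but the groups overlapped because the arrays numbered 2 lay 0.82 below those numbered 1. The difference was 0.13 (SE 0.49, 95% interval -1.14 to 1.41). The 4 other Itgav probe sets, which were too dim to test, ran from -0.46 to 0.38.

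**Figure D3:**
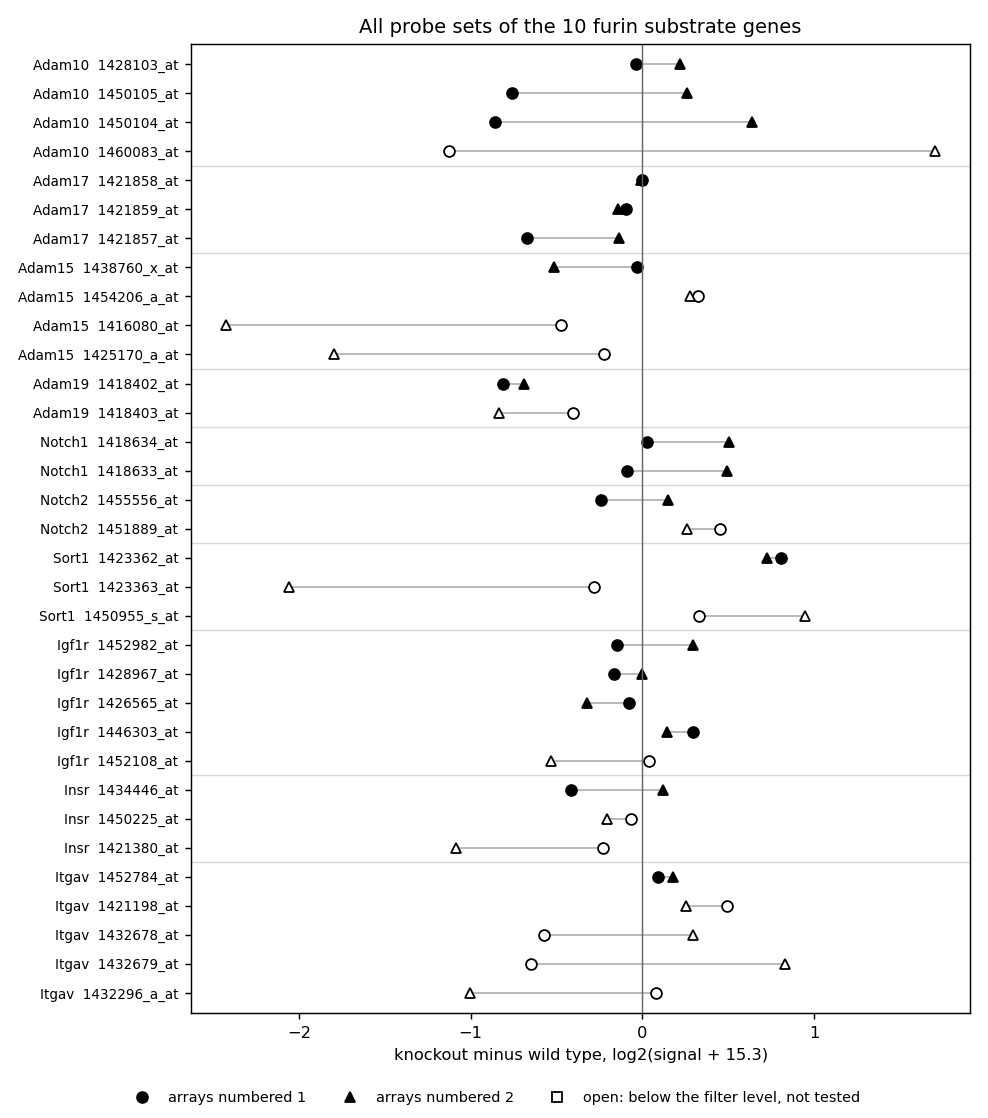
Difference of knockout minus wild type, log2(signal + 15.3), for all 33 probe sets, grouped by gene with the brightest first; circles are arrays numbered 1, triangles arrays numbered 2, and open symbols probe sets below the filter level. The 4 Adam10 probe sets have opposite signs in the numbers, both Adam19 probe sets lie left of 0, and the widest gaps are among open symbols.

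Taken over all 33 probe sets, 8 were higher and 12 lower in the knockout within both numbers, and 13 had opposite signs. Among the 18 tested, 4 were higher and 6 lower within both, where the whole tested array had 25.3% higher, 30.1% lower and 44.6% with opposite signs. In 1 tested member, that of Sort1, both knockout arrays lay above both wild-type arrays, where 7.62% of all tested probe sets did. In 3, of Adam19, Adam15 and Adam17, both lay below, where 9.54% of all tested probe sets did. The difference between array numbers was larger in size than that between genotypes in 13 of the 18, and in 77.3% of all tested probe sets. Just inside the filter level of 6.24 was an Adam10 probe set with a mean log2 value of 6.42, and just outside it an Insr probe set at 6.15.

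Genes around the members were described by lists, by their brightest tested probe set. The counts of each list stand beside shares of 27.6% higher and 27.2% lower within both numbers over all genes tested. Of 22 further furin substrates 9 were tested, of which 2 were higher and 3 lower in the knockout within both numbers, with a median of -0.18. Sorl1, another Vps10 receptor, was at 0.28 (0.14 and 0.42 within the numbers), Notch3, a further Notch receptor, at 0.21 (0.25 and 0.17) and Adam9, a related protease, at -0.25 (-0.11 and -0.40). No gene of this list passed limma with or without the block.

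The rhomboid-like proteins and tetraspanins that escort Adam17 and Adam10 to the surface, with the TIMP inhibitors, gave 7 tested genes of 13 listed, of which 0 were higher and 3 lower within both numbers and none passed limma. The 3 were small: Rhbdf2, which escorts Adam17, was at -0.16, its partner Frmd8 at -0.14, and Tspan5, a tetraspanin that binds Adam10, at -0.14. Proteins that these proteases shed gave 0 higher and 5 lower of 9 tested (14 listed), with a median of -0.14. Il6ra, a chain of the interleukin 6 receptor, had 1979.2 and 1498 on the knockout arrays against 2719.9 and 2479.3 on the wild-type arrays. Its difference was -0.59 (SE 0.34). Both knockout values lay below both wild-type values, as in 9.54% of all tested probe sets. Fasl, the death ligand, was at -0.53 (-0.45 and -0.61 within the numbers) and Cd46, a complement regulator, at -0.96 (-0.25 and -1.67). Cd46 was dim, with 81 and 23.5 on the knockout arrays 1 and 2 against 99.4 and 108.2 on the wild-type arrays. Most of its difference came from knockout array 2. None of the 9 passed with or without the block.

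Of 17 tested genes of the Notch pathway, from 25 listed, 6 were higher and 3 lower within both numbers, with a median of 0.07 and none past limma in either fit. Dtx1, a ubiquitin ligase and Notch target, had 5475.9 and 4243.4 on the knockout arrays against 6984.7 and 5561.6 on the wild-type arrays, a difference of -0.37 (SE 0.35). Nrarp, a feedback inhibitor that Notch induces, had 108.6 and 149.9 on the knockout arrays against 222 and 178.7 on the wild-type arrays, a difference of -0.58 (SE 0.36). In both genes the knockout arrays lay below the wild-type arrays, as in 9.54% of all tested probe sets. Hey1 and Hes1 of the same list, both too dim to test, did not share this direction. Hey1 was higher in the knockout within both numbers, at 0.25 and 0.43. Hes1 had opposite signs, at 0.92 and -2.35. Rfng, a fringe glycosyltransferase that modifies Notch, was at 0.28 (0.28 and 0.29 within the numbers).

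The insulin and insulin-like growth factor list had 12 tested genes of 18, 1 higher and 4 lower within both numbers, with a median of -0.06. Pik3r1, the regulatory subunit of PI3 kinase, had 3903.1 and 1794.1 on the knockout arrays 1 and 2 and 6182.8 and 3060.5 on the wild-type arrays 1 and 2. The knockout array was the lower within each number, by 0.66 and 0.77, but knockout array 1 lay above wild-type array 2. Its difference of -0.71 (SE 0.58) did not pass limma with or without the block. A trended prior added to the block called it lower (limma, adjusted p = 0.00789), the 1 gene of the 7 lists that this setting called. Among the cell type markers the same setting called 2 B cell, 4 myeloid and 1 CD8 T or NK cell gene higher in the knockout. Igf2r, the receptor that clears insulin-like growth factor 2, was at -0.47 (-0.48 and -0.47) and Foxo1, a transcription factor held back by insulin signals and needed for the naive state, at -0.40 (-0.45 and -0.36).

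Among 7 tested integrin alpha v partners of 10, 3 were higher and 2 lower within both numbers, with a median of -0.13. Itgb3, the beta chain of the vitronectin receptor, was at -0.19, the integrin-linked kinase Ilk at -0.24 and Fermt3, a kindlin that activates integrins in blood cells, at 0.25. The sortilin family and its sorting partners had 11 tested genes of 13, 5 higher and 1 lower within both numbers, with a median of 0.11. Sorcs3 and Sorcs2, further Vps10 receptors, were at 0.55 (0.70 and 0.39 within the numbers) and 0.46 (0.28 and 0.65), and Grn, progranulin, a ligand of sortilin, at 0.39 (0.22 and 0.57). Sorcs3 was dim, with 55.2 and 102.5 on the knockout arrays against 28 and 74.3 on the wild-type arrays. No gene of these 2 lists passed limma with or without the block.

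**Figure D4:**
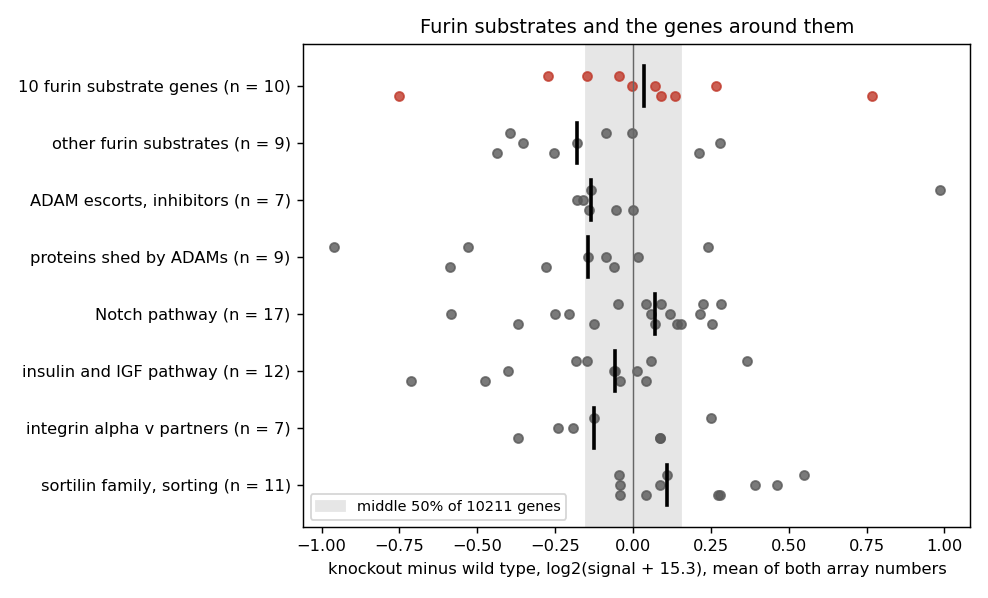
Difference of knockout minus wild type, log2(signal + 15.3), for the 10 furin substrate genes (top row) and the tested genes of 7 lists; each point is a gene, black bars are medians, and the grey band holds the middle 50% of 10211 genes. Sort1 at 0.77 and Adam19 at -0.75 are the outer points of the top row, and the medians of the lists run from -0.18 to 0.11.

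The genes whose values over the 4 arrays most resembled those of Sort1, by Euclidean distance of log2 values centred on their mean, were Slfn4 (distance 0.04), Dph1 (0.05) and Astl (0.07). For Adam19 they were Zc3h6 (0.09), Sox4 (0.10) and Pstpip2 (0.11). Sox4, a transcription factor, had 808.6 and 1013.5 on the knockout arrays against 1404.6 and 1518.6 on the wild-type arrays. These likenesses rest on 4 arrays and are a description.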

How the data were processed

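Naive CD4 T cells were measured on 4 Affymetrix arrays, 2 knockout and 2 wild type. The deposited values are intensities, MAS5 signals with 1 value per probe set; per the submitters' processing notes MAS5 made them, with no version or settings stated. Knockout array 1 and wild-type array 1 share 1 trimmed mean, 500.003 with 2% trimmed per end, so these arrays were already scaled. The trimmed mean of the arrays numbered 2 is not given here. The table has no detection calls. Genes were named from the platform annotation. For 34741 of 34945 probe sets with 1 symbol, the Entrez identifier was found in a RefSeq gene table of GRCm38.p6 and the symbol was taken from there. The 64 control probe sets were left out.

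Signals were transformed as log2(signal + 15.3), 15.3 being the 25% quantile of all values, and the 22518 probe sets with a mean above the median were tested with limma 3.58.1 in R 4.3.3 (lmFit, eBayes, two-sided, Benjamini-Hochberg, threshold 0.05), without a block. The labels give the arrays the numbers 1 and 2 in both groups and state no shared animal or day; array deviations from the group mean correlated between the groups at 0.80 within a number, over probe sets, which are not independent replicates. The members and lists were chosen with earlier results of these data known. Named genes are the 10 members, up to 3 per list with the largest difference of 1 sign within both numbers, and the 3 nearest to Sort1 and to Adam19. Hey1 and Hes1 are named besides, although below the filter level. The fit was also run on simulated data, with planted differences larger than that of any tested member. That run therefore does not show how the fit handles differences as small as those seen here.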

Additional observations from a re-analysis of the deposited data

How the results depend on the processing

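No member passed an adjusted p of 0.05 in the reported fit or under any of the alternatives run, which covered the pseudocount, the filter, quantile normalization, median centring, a trended prior, the array number as a block and each array left out. With 2 arrays a group, the unadjusted 95% interval without the block reached a median of 1.07 on the log2 scale to either side over all tested probe sets, and 0.857 to 1.77 over the tested members. The count of called probe sets over the whole array was 0 in the reported fit. It was 6 with the replicate block, 260 with the replicate block and a trended prior, 6 with the replicate block and quantile normalization and 0 with the replicate block and no filter, and the block changed no call of a member. Leaving out 1 array gave 0 calls each time.

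Adam19 stayed between -0.92 and -0.58 and Sort1 between 0.41 and 1.13 with 1 array left out. The groups of Adam19, Sort1 and Adam15 did not overlap, so leaving out 1 array could not turn their direction. Over the same 4 settings Adam10 ran from -0.11 to 0.29, Adam17 from -0.43 to 0.42, Notch1 from -0.0735 to 0.61, Notch2 from -0.17 to 0.0785, Igf1r from -0.0765 to 0.22 and Itgav from -0.30 to 0.56, all crossing 0, while Adam15 ran from -0.51 to -0.04 and Insr from -0.29 to -0.01. The direction turned without wild-type array 2 (Adam10, Notch1, Igf1r, Itgav), wild-type array 1 (Adam17, Notch2), knockout array 1 (Notch2, Itgav) or knockout array 2 (Adam17, Igf1r). These settings unbalance the array numbers between the groups. Under the other settings, 111 of 116 values over the 10 genes kept the direction. Settings that change only the filter, the prior or the block leave the difference itself unchanged, so they could not turn it. Adam17 turned to 0.00694 with quantile normalization, with and without the replicate block. With all probe sets of a gene averaged Notch2 turned to 0.156, Igf1r to -0.0485 and Itgav to -0.000659, and then 1 member gene was higher and 5 were lower within both numbers, in place of 3 and 2; the cause was not tested. These counts were 4 and 2 with quantile normalization, 2 and 2 with median centring, and 3 and 2 with either other pseudocount. They were added after the data were seen. Adam15, Adam19, Sort1 and Igf1r have no value with the filter at the 75% quantile, where they are left out.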
